A study of Homo sapiens with 9 samples.

Results

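The RNAs described here are the counted long intergenic noncoding RNAs of A549 cells, a human lung adenocarcinoma line. A row of the count table was a member when its symbol was LINC followed by a number and its mean raw count over the 9 libraries was 10 or more, which held for 143 of the 878 LINC rows and of the 26364 rows in all. The series asks what an intergenic *ALK* fusion, *LOC388942-ALK* (*LA*), does to these cells and what *FOS* contributes in them. RNA was sequenced from 4 groups. The 2 control libraries came from A549 cells labelled wild type. The 2 *LA* libraries came from A549 cells carrying guides against *LOC388942* and *ALK*. The 3 sgScr libraries came from cells with those same guides and a scramble guide, and the 2 sg*FOS* libraries from cells with those same guides and a guide against *FOS*. The study's methods describe a line that expressed Cas9 and fusion cells grown up from single cells by limiting dilution, so a fusion group may be 1 clone, and the labels do not say which *FOS* guide was used. Nothing in the labels says that replicates came from separate cultures, so p-values measure only the spread between these libraries, which may be technical.

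A LINC symbol is given to an RNA gene that lies between protein-coding genes and has no name from a function. Such transcripts are capped, often spliced and polyadenylated like mRNA, are usually of low abundance, and can act near their own locus, in the nucleus or as decoys for proteins and microRNAs in the cytoplasm. Some of these loci have since been found to hold a short reading frame for a small protein and carry a second name.

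The libraries held between 14507228 and 20456341 counts on genes. The keratin genes *KRT8*, *KRT18* and *KRT19* and the other 3 epithelial and A549 markers were counted in every library. *PTPRC*, the defining marker of blood cells, was at 0 in all 9. Of the endothelial and fibroblast markers, *COL1A1*, a collagen gene, had 111 to 271 counts. *PECAM1* had 0 or 1, *CDH5* 0 to 16, *COL1A2* 0 to 2 and *LUM* 0 to 12 counts a library. Replicates of sgScr and of sg*FOS* were close, with a chi-square of 1.74 to 2.65 per degree of freedom over genes, where counting error alone gives about 1. The 2 control libraries differed from each other by 125 and the 2 *LA* libraries by 58.1 on that scale, and this spread enters every comparison below that uses them. In bulk RNA, fewer cells with an RNA and less of it per cell cannot be told apart.

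The LINC RNAs were a small part of the transcriptome. They took 0.138% and 0.134% of all counts in the control libraries, 0.160% and 0.177% in *LA*, 0.141%, 0.135% and 0.130% in sgScr, and 0.125% and 0.132% in sg*FOS*. Both *LA* libraries lay above the other 7. Without *LINC00657*, which alone held 8.79% to 24.6% of the members' counts, *LA* replicate 1 (0.1262%) and control replicate 1 (0.1258%) were next to each other and only *LA* replicate 2 (0.143%) stood above the rest. The members were chosen by their mean raw count, so these shares and all levels are a description. The median member had a mean of 46.7 counts, 92 members had a mean under 100 and 3 had 1000 or more, and the only 0 among the members' counts was *LINC01139* in control replicate 1, which allows up to 3 counts. Just inside the limit were *LINC01006* and *LINC01530* with a mean of 10.2 counts and *LINC00628* with 10.4, and just outside were *LINC00959* with 9.89 and *LINC00704* and *LINC01144* with 9.67. Of the 735 LINC rows outside it, 421 had no count in any library.

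**Figure D1:**
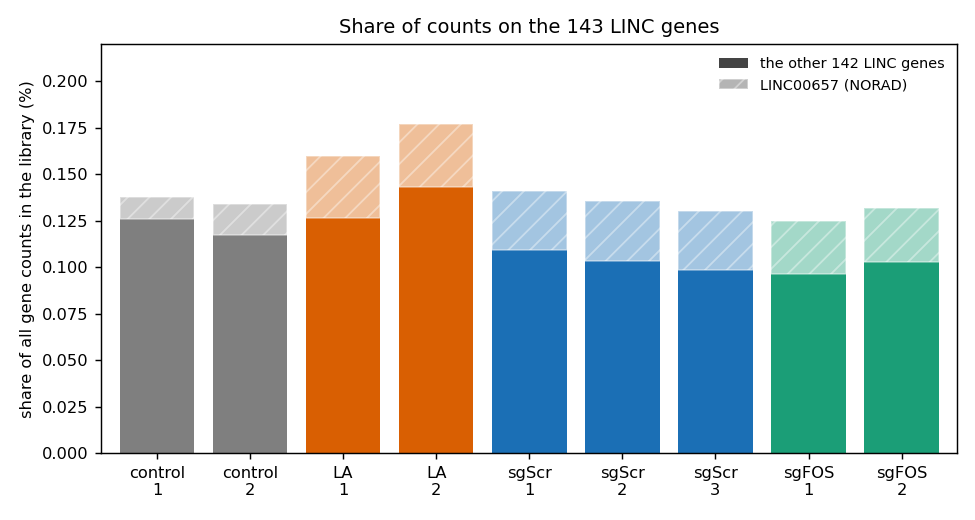
Stacked bars give, for each library, the percent of all gene counts that fell on the 143 LINC genes, with the part of *LINC00657* (*NORAD*) hatched on top. The bars of the *LA* libraries reach 0.160% and 0.177%, above all others, and the hatched part is smallest in the control libraries.

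A locus on GRCh37 was found for 127 of the 143 members in the GENCODE annotation, and 107 of the row names are still the current symbol. The annotation calls 114 of them long noncoding, 8 protein coding and 5 pseudogenes. The members lay on all autosomes and on the X chromosome, with 10 each on chromosomes 1, 2 and 12. Despite the name, 35 members overlapped a protein-coding gene, 11 of them on the same strand and 24 on the opposite strand, 24 more lay within 5 kb of one, and 29 were over 50 kb away. Their longest transcript had a median of 2683 bases and 3 exons, against a median of 3750 bases over all genes tested, and a GC content of 47.2% against 48.3%.

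Sequence shared with other annotated genes limits what can be said of several members. Of the 127 with a transcript sequence, 22 shared no run of 50 bases with another annotated gene and 11 shared over 50% of theirs. These counts include genes annotated over the member at its own locus, so they do not measure copies alone. *LINC00304*, for example, shared 27.2% with *ACSF3*, in which it lies. *LINC00941*, an RNA studied in lung and other cancers, shared 96.5%. *LINC00152* (*CYTOR*), a cytoplasmic RNA often raised in tumours, shared 54.0% with *MIR4435-2HG*, its near-copy on the same chromosome. *LINC00319* shared 70.6% with another annotated entry. The closest pair among the members was *LINC01106* and *LINC01123*, both on chromosome 2, where *LINC01106* shared 87.2% of its runs with *LINC01123* and *LINC01123* 78.1% with *LINC01106*. The copies extend into the promoters. Below are the windows from 250 bases before to 50 after the start site in RefSeq on GRCh38.p14, for *LINC01123* at chr2:109986730-109987029 (plus strand) and for *LINC01106* at chr2:110384487-110384786 (minus strand), shown because the pair was counted apart and behaved differently. Capitals mark the 289 bases that the 2 windows share without a mismatch.
LINC01123: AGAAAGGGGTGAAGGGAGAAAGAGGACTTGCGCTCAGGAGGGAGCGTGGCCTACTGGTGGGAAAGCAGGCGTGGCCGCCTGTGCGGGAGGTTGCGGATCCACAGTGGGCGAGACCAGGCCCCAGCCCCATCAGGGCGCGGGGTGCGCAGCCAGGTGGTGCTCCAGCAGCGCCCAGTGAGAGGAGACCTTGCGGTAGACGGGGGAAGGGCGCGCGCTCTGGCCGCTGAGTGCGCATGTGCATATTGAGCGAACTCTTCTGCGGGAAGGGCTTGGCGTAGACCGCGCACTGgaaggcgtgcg
LINC01106: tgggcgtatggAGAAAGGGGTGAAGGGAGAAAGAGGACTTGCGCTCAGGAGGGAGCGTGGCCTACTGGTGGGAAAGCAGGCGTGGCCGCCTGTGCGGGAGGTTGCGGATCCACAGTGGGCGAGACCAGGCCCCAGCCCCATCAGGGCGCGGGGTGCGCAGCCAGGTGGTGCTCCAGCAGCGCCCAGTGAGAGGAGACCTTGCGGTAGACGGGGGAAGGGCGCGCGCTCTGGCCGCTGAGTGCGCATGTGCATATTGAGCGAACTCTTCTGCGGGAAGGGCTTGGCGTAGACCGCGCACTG
How reads that fit both copies were assigned is not given in the sources used here, so the counts of both genes are uncertain. On GRCh37 the genes span chr2:110744640-110753717 and chr2:111132715-111142019, with *LINC00116* between them.

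Compared per kb of exonic length, the most abundant member was *LINC00657* (*NORAD*), a cytoplasmic RNA that binds Pumilio proteins, at a mean of 50.7 CPM per kb over the 9 libraries, CPM being counts scaled to the TMM-adjusted library size. *LINC00493* (*SMIM26*) followed with 33.0, *LINC01420* (*NBDY*) with 18.3, *LINC00116* (*MTLN*) with 15.5, *LINC01123* with 14.9, *LINC00998* (*SMIM30*) with 12.0, *LINC00997* with 11.8 and *LINC00842* with 11.2. Of these 8 loci, 4 encode a small protein. The order depended on the group: *LINC00493*, at 66.8 CPM per kb, led in control cells, where *LINC00657* had 29.6, while in *LA* cells *LINC00657* had 58.7 and *LINC00493* 20.7.

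Most members were counted in every group. A mean of 10 counts was reached in all 4 groups by 112 members, in 3 by 23, in 2 by 7 and in a single group by 1. The highest group mean, in CPM, exceeded the lowest by a median of 2.41-fold, by 2-fold or more in 96 members and by 5-fold or more in 20. The highest mean was in control for 67 members and in *LA* for 56, against 10 each for sgScr and sg*FOS*. Among the 20 with the widest range, 9 were highest in control and 11 in *LA*, and in several of them 1 library carried the difference. *LINC00685* had 23.3 CPM in control replicate 1 and at most 2.91 in the other 8 libraries. *LINC00176* (*C20orf204*) had 7.54 CPM in *LA* replicate 2 and 1.41 in *LA* replicate 1, and *LINC01559* had 4.08 and 0.982.

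**Figure D2:**
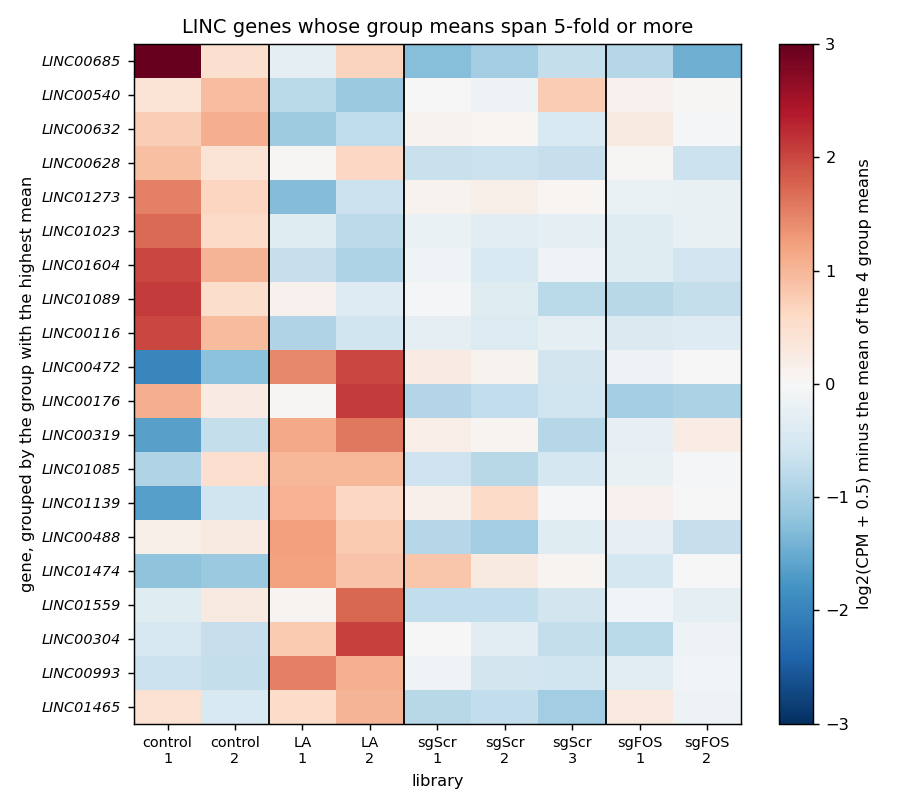
The heatmap gives log2(CPM + 0.5) in each of the 9 libraries, centred on the mean of the 4 group means, for the 20 LINC genes whose group means span 5-fold or more (colour bar, red higher and blue lower). The upper 9 genes are highest in control and the lower 11 in *LA*, *LINC00685* is dark in control replicate 1 alone, and the sgScr and sg*FOS* libraries mostly lie between the extremes. Colours end at 3 on either side.

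The comparison of *LA* with control cells asks which LINC RNAs differ in cells with the fusion. *LINC00472* rose most. RNAs of 3 listed loci with small proteins fell, and of these only *LINC00116* stayed called with length and GC content corrected. In edgeR's quasi-likelihood test with Benjamini-Hochberg adjustment over all 14425 genes tested, 9 members were higher and 12 lower of 142 tested. That is 14.8% of the members, against 19.5% of all genes, of which 9.57% were higher and 9.94% lower. A gene can become a member through the group where it is high. Of the 129 members with a mean of 10 counts in both groups, 8 were called higher and 9 lower. The median log2 fold change was -0.21 over the members and 0.04 over all genes. With library size alone both medians were higher, 0.10 and 0.33, and without control replicate 1 the members' median was 0.05. The groups did not overlap, higher in *LA*, for 44 members and, lower, for 48, where the background was 33.8% and 30.0% of all genes.

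*LINC00472*, an RNA studied as a tumour suppressor in breast cancer, spans chr6:71896864-72130448 and overlaps *OGFRL1* on the other strand. It had 2.45 and 4.42 CPM in the control libraries and 30.8 and 45.9 in *LA*, then 13.2, 11.9 and 7.35 in sgScr and 9.90 and 11.0 in sg*FOS*. Every library with the fusion guides lay above both control libraries, and both *LA* libraries above all others. The log2 fold change in *LA* was 3.44 (SE 0.49, adjusted p = 0.000136), and it was called in all 13 alternatives, with values from 2.64 to 3.87.

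The other 8 members that rose were of low or middle abundance. *LINC00319* was counted 4 and 16 times in control cells and 76 and 118 times in *LA* (log2 fold change 3.16, SE 0.73, adjusted p = 0.00485). It lies 19470 bases from *SIK1*, a salt-inducible kinase gene, which rose as well (1.46, adjusted p = 0.018). Of the 13 called members with a tested neighbour in this comparison, only 3 had a called neighbour, each with the same direction. *LINC00993*, 15551 bases from *ANKRD30A*, went from 11 counts in each control library to 79 and 62 (2.58, adjusted p = 0.0136), and *ANKRD30A* rose by 3.75. *LINC01279* had 65 and 71 counts in control and 257 and 254 in *LA* (1.81, adjusted p = 0.0126). RefSeq lists the names *LINC01279* and *LINC00473* as synonyms of *CCDC80* and *PDE10A*, protein-coding genes with rows of their own, so neither was given a locus and which transcripts those rows hold is uncertain. Also higher were *LINC01139* (3.02), *LINC01474* (2.86), *LINC00304* (2.62, inside *ACSF3* on the same strand), *LINC01347* (1.69) and *LINC00641* (1.48). In none of the 9 did a control library reach an *LA* library.

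Listed LINC loci with small proteins were mostly lower in *LA*. The list holds 9 loci and was chosen with earlier results of these data known. It does not hold all 8 members annotated as protein coding. Of the 4 counted, 3 were called lower (75.0%, against 9.94% of all genes) and none higher. Their median log2 fold change was -1.47. *LINC00116* (*MTLN*), which encodes mitoregulin, a small protein of mitochondria, had 105 and 50.3 CPM in control and 13.6 and 17.0 in *LA* (log2 fold change -2.36, SE 0.45, adjusted p = 0.00164). *LINC00493* (*SMIM26*), also known for a mitochondrial small protein, had 79.3 and 67.4 CPM in control and 23.8 and 21.6 in *LA* (-1.71, SE 0.41, adjusted p = 0.00576). *LINC01420* (*NBDY*), whose product binds the mRNA decapping complex, had 101 and 65.7 CPM in control and 34.1 and 38.3 in *LA* (-1.22, adjusted p = 0.036). The fourth, *LINC00998* (*SMIM30*), was at 24.9 and 31.0 against 18.5 and 16.2 CPM (-0.71, adjusted p = 0.241). In sgScr and sg*FOS* the mean of each of the 4 lay nearer to *LA* than to control, and none was called in either of the other comparisons. Fold changes in this comparison followed transcript length over all genes (Spearman's rho across genes 0.53, n = 13952, genes sharing the same libraries) and hardly over the members (0.13, n = 125). With length and GC content corrected, *LINC00116* was still called (-1.89, adjusted p = 0.0117), *LINC00493* (-0.68, adjusted p = 0.132) and *LINC01420* (-1.21, adjusted p = 0.0683) were not.

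Outside that group, *LINC01604* (*MINCR*), named as an RNA induced by MYC, had 28.2 and 14.2 CPM in control and 3.93 and 3.30 in *LA* (log2 fold change -2.56, SE 0.51, adjusted p = 0.00203). Its neighbour *GLI4*, 3221 bases away, fell by 1.67 on the log2 scale. *LINC00339*, near *CDC42*, had 32.4 and 20.1 CPM in control and 9.21 and 6.26 in *LA* (-1.78, adjusted p = 0.0102). Lower too were *LINC00632* (-2.75), *LINC01273* (-2.67), *LINC01023* (-2.62), *LINC01089* (-1.70) and *LINC00847* (-1.53), all without overlap. *LINC00540* had 17 and 30 counts in control and 3 and 1 in *LA*. *LINC00685* was called lower (-2.64, adjusted p = 0.013) although its groups overlapped, with 360 and 42 counts in control and 20 and 52 in *LA*.

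These calls leaned on single libraries. The share of all genes called in the other fits is not given, so the counts from them describe the members alone. Without control replicate 1, 9 members were called, of which 8 were among the 21, and without control replicate 2, 34 and 18. Without *LA* replicate 1 only *LINC00304*, *LINC00319*, *LINC00472* and *LINC01604* were called, and without *LA* replicate 2 only *LINC00472* and *LINC00685*. In such a fit the lone library is assumed to vary like the other group. With length and GC content corrected, which left 125 members tested, 12 of the 21 stayed called, 6 higher and 6 lower. Among those that did not were *LINC00339*, *LINC01089*, *LINC01139* and *LINC01273*. DESeq2 called all 21 and 3 more. The study's own threshold was an absolute log2 fold change over 0.5 with an unadjusted p under 0.05, with DESeq2. Here and below it was applied to the edgeR fits. It gave 21 higher and 22 lower. Of all genes, 34.5% passed it.

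The comparison of sg*FOS* with sgScr asks what changes in fusion cells when *FOS* is edited. The targeted gene had 1008 and 1113 counts in sg*FOS* and 4198, 4037 and 3528 in sgScr (log2 fold change -1.48, SE 0.04, adjusted p = 2.0e-25), against 5448 and 1660 in *LA* and 167 and 155 in control. Most changes of LINC RNAs were within 1 on the log2 scale. Of 138 members tested 6 were higher and 13 lower. That is 13.8%, against 22.7% of all 14196 genes tested, of which 12.2% were higher and 10.5% lower. The median SE of the log2 fold change was 0.26 over the members and 0.08 over all genes, and the median count 44.2 and 444. These shares are therefore not at like precision. Of the 123 members with a mean of 10 counts in both groups, 5 were called higher and 13 lower. The groups did not overlap, higher in sg*FOS*, for 15 members and, lower, for 34, which is 10.9% and 24.6% of the members, where the background was 24.0% and 24.5%. The median log2 fold change was -0.08 over the members and -0.0015 over all genes.

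*LINC00173*, an RNA studied in blood cells and lung cancer, had the largest called decrease. It had 11.0, 10.8 and 7.12 CPM in sgScr and 4.07 and 4.92 in sg*FOS* (log2 fold change -1.11, SE 0.17, adjusted p = 5.7e-06), without overlap, but its replicates spread more widely elsewhere, with 17.1 and 6.02 in control and 8.04 and 2.07 in *LA*. *LINC00657* (*NORAD*) showed a small change with little spread, from 313, 314 and 318 CPM in sgScr to 283 and 282 in sg*FOS* (-0.15, SE 0.03, adjusted p = 0.00111). *LINC00847* had 9.23, 8.65 and 9.88 CPM in sgScr and 5.83 and 6.52 in sg*FOS* (-0.57, adjusted p = 0.00262). Members lower by less than 1 on the log2 scale also included *LINC00672* (*LASP1NB*, -0.90), *LINC00106* (-0.86, with its adjusted p just under the threshold), *LINC01474* (-0.82), *LINC00910* (-0.59), *LINC01106* (-0.46), *LINC01184* (*SLC12A2-DT*, -0.40), *LINC00339* (-0.35) and *LINC01123* (-0.16). *LINC01578* (*CHASERR*), which restrains the chromatin remodeller gene *CHD2* beside it, fell by 0.18 on the log2 scale and *CHD2* by 0.15. Of the 10 called members with a tested neighbour in this comparison, 5 had a called neighbour, and 3 of those pairs had the same direction. *LINC00641* was called (-0.50) with overlapping groups, 37.5, 28.5 and 23.2 CPM in sgScr against 18.3 and 24.0.

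On the higher side, *LINC01279* had 4.42, 5.05 and 4.08 CPM in sgScr and 8.0 and 6.59 in sg*FOS* (log2 fold change 0.69, SE 0.16, adjusted p = 0.00175). *LINC01468* (*LNCAROD*), an RNA that activates the WNT antagonist gene *DKK1*, had 6.47, 5.78 and 5.00 CPM in sgScr and 8.81 and 9.45 in sg*FOS* (0.66, SE 0.15, adjusted p = 0.000735). *LINC01588* (0.67), *LINC00673* (0.30) and *LINC00294* (0.31) were also higher, and *TCP11L1*, which overlaps *LINC00294* on the same strand, changed by the same 0.31, so the reads of that pair may be shared. *LINC01465*, at a few counts a library, had 10, 11 and 6 counts in sgScr and 24 and 16 in sg*FOS* (1.55, adjusted p = 0.00454). Each of these 6 was higher in both sg*FOS* libraries than in any sgScr library.

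**Figure D3:**
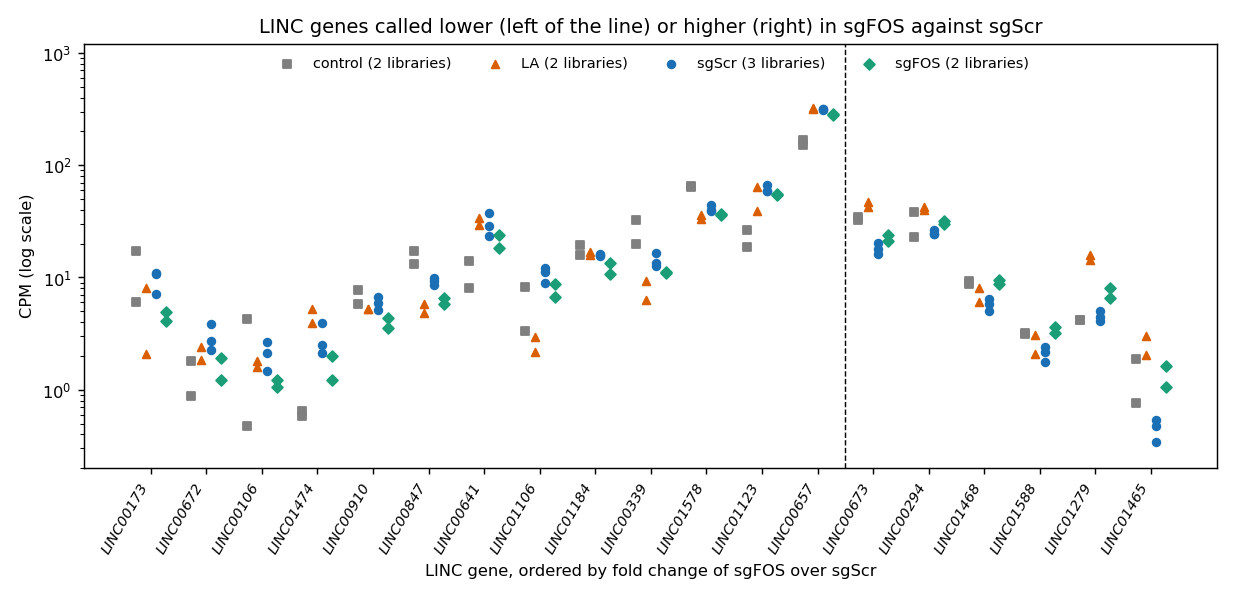
Points give the CPM (log axis) of the 19 LINC genes called in sg*FOS* against sgScr in each of the 9 libraries, with groups side by side within a gene. Green diamonds (sg*FOS*) lie below blue circles (sgScr) left of the dashed line, except where *LINC00641* overlaps, and above them right of it. The *LA* and control points of the same genes often lie further apart than those of sg*FOS* and sgScr.

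These 19 calls depended on the tool and on the libraries fitted. How many of all genes the other fits called is not given, so their counts describe the members alone. DESeq2 called 6, namely *LINC00173*, *LINC00294*, *LINC00657*, *LINC00847*, *LINC01279* and *LINC01468*, and without sg*FOS* replicate 1 edgeR called 4, namely *LINC00173*, *LINC00657*, *LINC00673* and *LINC01468*. With all 9 libraries in a single fit, which takes in the spread of control and *LA*, edgeR called 0, with 6 at an unadjusted p under 0.05. Without sgScr replicate 1 edgeR called 13, and 7 of these were lower. The study's threshold gave 5 higher and 11 lower, where 5.76% of all genes passed it.

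FOS acts as a partner in AP-1, a dimer that binds the letters TGACTCA or its reverse complement TGAGTCA. RefSeq promoter windows of 300 bases on GRCh38.p14 were at hand for 106 members, some with several start sites, 118 windows in all. One of these letter strings stood in 11 windows (9.32%) of 11 members, against 1738 (4.95%) of the 35116 windows of the whole table. Among the 11, the windows of *LINC01001*, *LINC01002* and *LINC01061* are near-copies, with shared runs of 74 to 126 bases, and are not separate occurrences. The related CRE letters TGACGTCA stood in 2 windows (1.69%), against 1.85% in the table. Among the windows of members called in sg*FOS* against sgScr, the AP-1 letters stood in 1 of 15 of members that were lower and 1 of 7 of members that were higher. The same counts were 1 of 15 and 0 of 5 in *LA* against control, and 4 of 22 and 1 of 9 in sgScr against *LA*, the 4 including those 3 near-copies. A match describes letters and not binding, and no match says only that these letters are not in the window. *LINC00339* and *LINC01468* each also have a window without a match, and the window of *LINC00152* holds the letters in duplicate. Shown with the matches in capitals are the 2 matching windows of members called in sg*FOS* against sgScr and that of *LINC00152*. They lie at chr1:22024941-22025240 (plus strand) for *LINC00339*, with the match starting 101 bases before the start site, at chr10:52455223-52455522 (minus strand) for *LINC01468*, 100 bases before it, and at chr2:87455177-87455476 (plus strand) for *LINC00152*, 19 and 9 bases before it.
LINC00339: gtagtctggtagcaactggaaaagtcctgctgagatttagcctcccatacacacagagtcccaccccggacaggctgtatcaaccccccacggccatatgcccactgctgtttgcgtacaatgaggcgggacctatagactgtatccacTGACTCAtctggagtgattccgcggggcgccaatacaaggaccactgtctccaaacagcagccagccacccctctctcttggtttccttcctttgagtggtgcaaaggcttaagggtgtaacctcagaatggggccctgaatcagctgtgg
LINC01468: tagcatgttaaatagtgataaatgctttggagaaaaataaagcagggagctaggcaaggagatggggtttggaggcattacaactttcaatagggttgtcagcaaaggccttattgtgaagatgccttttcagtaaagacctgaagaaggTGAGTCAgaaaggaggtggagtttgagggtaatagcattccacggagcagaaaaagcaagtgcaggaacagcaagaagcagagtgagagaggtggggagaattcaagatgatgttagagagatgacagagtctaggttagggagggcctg
LINC00152: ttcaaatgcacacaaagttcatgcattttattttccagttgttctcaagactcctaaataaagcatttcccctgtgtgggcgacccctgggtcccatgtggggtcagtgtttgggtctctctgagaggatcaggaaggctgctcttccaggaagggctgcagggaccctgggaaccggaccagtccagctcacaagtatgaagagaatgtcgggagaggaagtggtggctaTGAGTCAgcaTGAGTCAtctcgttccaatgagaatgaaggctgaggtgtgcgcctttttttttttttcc
*LINC00339* was lower in sg*FOS* (-0.35, adjusted p = 0.0331) and *LINC01468* higher. *LINC00152*, with the letters in duplicate, had 22.2, 24.6 and 22.2 CPM in sgScr and 23.9 and 22.7 in sg*FOS* (0.02, SE 0.08, adjusted p = 0.892).

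The comparison of sgScr with *LA* sets fusion cells with a scramble guide against fusion cells without one, and what else differs between these libraries cannot be told apart from the guide. It shares its *LA* libraries with the first comparison and its sgScr libraries with the second. More members were lower than higher. Of 142 members tested 8 were higher and 32 lower, 28.2% against 22.9% of all 14521 genes tested. The lower members made up 22.5%, against 12.3% of all genes, and the higher ones 5.63% against 10.6%. Members were chosen by a mean over all 9 libraries, so a gene can qualify through the group where it is high. Of the 128 members with a mean of 10 counts in both groups, 6 were called higher and 27 lower. The groups did not overlap, lower in sgScr, for 61 members (43.0%, background 27.2%) and, higher, for 28 (19.7%, background 29.5%). The median log2 fold change was -0.30 over the members and -0.02 over all genes.

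**Figure D4:**
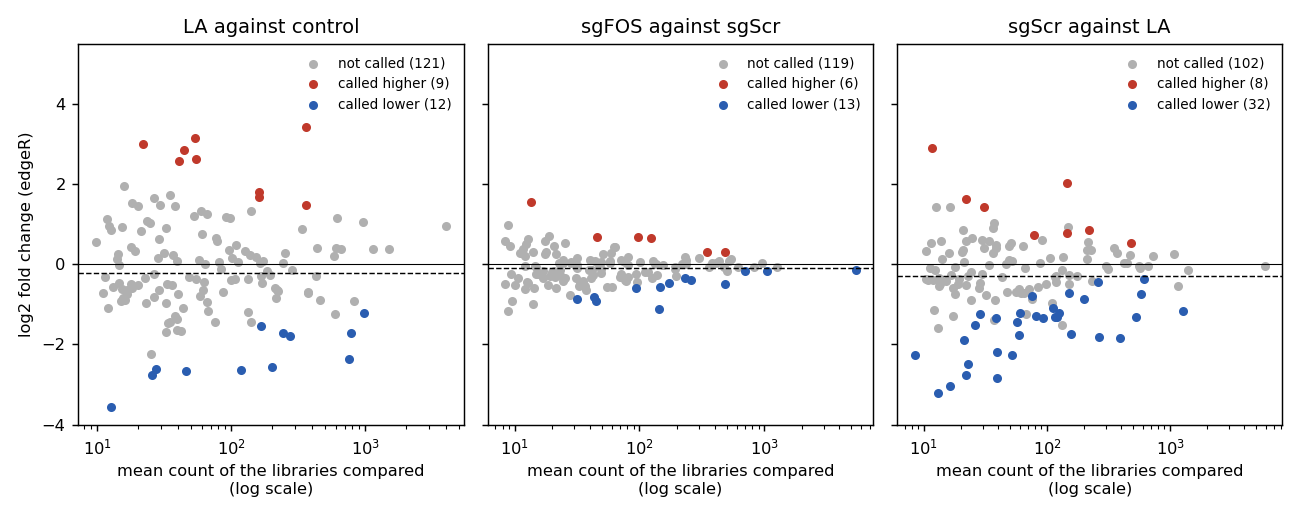
Each panel plots the edgeR log2 fold change of every LINC gene tested against its mean count in the libraries compared (log axis), with called genes in red (higher) and blue (lower), a solid line at 0 and a dashed line at the members' median. Calls reach furthest from 0 in *LA* against control, stay mostly within 1 in sg*FOS* against sgScr, and number 32 below and 8 above 0 in sgScr against *LA*.

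Among the members lower in sgScr, *LINC00473*, an RNA induced through cyclic AMP and CREB, had 21.8 and 30.1 CPM in *LA* and 7.09, 8.50 and 6.72 in sgScr (log2 fold change -1.82, SE 0.19, adjusted p = 0.00354). *LINC01279* went from 15.8 and 14.2 CPM in *LA* to 4.42, 5.05 and 4.08 (-1.75, SE 0.16, adjusted p = 0.00281), which is the level of control cells, 4.20 and 4.19. *LINC00673*, studied in lung and pancreatic cancer, went from 42.5 and 47.2 CPM to 18.1, 20.4 and 16.2 (-1.32, SE 0.13, adjusted p = 0.00309), below the control libraries at 32.5 and 34.9. *LINC00472* was lower by 1.85 (adjusted p = 0.00965), *LINC00993* by 2.18 and *LINC00319* by 1.76. Lower by over 2 were also *LINC00176* (-2.85), *LINC01559* (-2.77), *LINC01465* (-2.48) and *LINC00304* (-2.26), and lower by less *LINC00685* (-1.89). The size of the change in *LINC00176*, *LINC01559* and *LINC00304* leaned on *LA* replicate 2, which had 135, 73 and 142 counts where *LA* replicate 1 had 23, 16 and 49. Without that library *LINC00176* (-1.18) and *LINC00304* (-1.38) were still called and *LINC01559* (-1.40, adjusted p = 0.0502) was not. Across the alternatives *LINC00176* ranged from -3.58 to -1.18, *LINC01559* from -3.43 to -1.40 and *LINC00304* from -2.76 to -1.38.

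Of the 8 higher members, *LINC01106* was called in all 13 alternatives. It had 2.95 and 2.18 CPM in *LA* and 12.0, 11.1 and 8.84 in sgScr (log2 fold change 2.04, SE 0.24, adjusted p = 0.00486), and 8.14 and 3.30 in control. Its near-copy *LINC01123* had 63.3 and 39.3 CPM in *LA* and 66.9, 59.1 and 59.3 in sgScr (0.25, not called), and 18.9 and 26.3 in control. So the *LA* libraries were lowest of all for the one and above control for the other. In *LA* against control neither was called (log2 fold change -1.17 for *LINC01106* and 1.16 for *LINC01123*). *LINC00116*, which lies between them, was lower in *LA* than in control, as given above. *LINC01515* (1.64), *LINC01273* (1.44), *LINC00339* (0.85), *LINC00847* (0.79), *LINC00938* (0.73) and *LINC01234* (0.53) were also higher in sgScr, without overlap, and *LINC00540* had 3 and 1 counts in *LA* and 15, 12 and 27 in sgScr.

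Between 5 and 7 members were called when any 1 sgScr library was left out. *LINC00473*, *LINC00673*, *LINC01085*, *LINC01106* and *LINC01279* were among them each time. More members were called when 1 *LA* library was left out, which leaves a single library in that group. The share of all genes called in these fits is not given. DESeq2 called 39, of which 34 were among the 40, and the study's threshold gave 14 higher and 44 lower, where 25.9% of all genes passed it.

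LINC RNAs studied in cancer went in both directions. Of the 19 counted, *LINC00472* rose and *LINC00339* fell in *LA* against control (10.5% called, against 19.5% of all genes), and the median was -0.28. In sg*FOS* against sgScr *LINC00673* was higher and *LINC00339* and *LINC00657* lower (15.8%, against 22.7%), with a median of 0.0028. In sgScr against *LA*, *LINC00339* and *LINC01234* were higher and *LINC00472*, *LINC00473*, *LINC00673* and *LINC00941* lower (31.6%, against 22.9%), with a median of -0.12. *LINC00941* changed by -0.80 there (adjusted p = 0.044). *LINC00152* had 72.2 and 29.5 CPM in control and 15.7 and 28.2 in *LA* (-1.23, adjusted p = 0.0632), with the control libraries further apart than the *LA* ones. *LINC00467* (-1.44, adjusted p = 0.0519) missed the threshold by little in the same comparison. The remaining ones, among them *LINC00511*, *LINC00662*, *LINC00707*, *LINC00857*, *LINC00963*, *LINC01503*, *LINC00312*, *LINC00342*, *LINC01116* and *LINC00261*, beside *FOXA2*, were called in no comparison.

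Members and the protein-coding genes next to them were set side by side as a description. Of 91 members with a tested neighbour, 51 had the neighbour's direction in *LA* against control, with a Pearson correlation of log2 fold changes across these genes of 0.29. In sg*FOS* against sgScr it was 52 of 88 (0.12), and in sgScr against *LA* 53 of 91 (0.35). The pairs share libraries and are not independent. For members that overlap the neighbour the correlation was -0.06, 0.01 and 0.15. Of the members with a tested neighbour, 13, 10 and 25 were called in the 3 comparisons. Both genes were called in 3, 5 and 9 pairs, and had the same direction in 3, 3 and 8 of them.

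Other long noncoding RNAs, from a list of 53 that carry names of their own, were read from the same fits for context. Of 41 tested, 3 were higher and 12 lower in *LA* against control (7.32% and 29.3%, against 9.57% and 9.94% of all genes), with the largest changes in *CCAT1* (4.96), a colon cancer associated RNA, and *MIR22HG* (2.12), and in *SNHG5* (-2.55), a snoRNA host, and *PCAT6* (-2.23). In sg*FOS* against sgScr 3 were higher and 10 lower (7.32% and 24.4%, against 12.2% and 10.5%), led by *CCAT1* (0.87) and *MEG3* (0.46), and by *H19* (-1.22) and *MIAT* (-0.79). In sgScr against *LA* 6 were higher and 6 lower (14.6% each, against 10.6% and 12.3%), led by *H19* (4.03) and *MIAT* (2.54), and by *CCAT1* (-2.37) and *CASC15* (-1.91). The nuclear RNA exosome and its adaptors, which degrade many noncoding transcripts, had 28 genes tested. None was higher and 4 were lower in *LA* against control (14.3% called, against 19.5% of all genes), among them *EXOSC4* (-1.88) and *EXOSC7* (-1.71). In sg*FOS* against sgScr 2 were higher and 6 lower (28.6%, against 22.7%), and in sgScr against *LA* 3 were higher and none lower (10.7%, against 22.9%). Their part in the levels of the LINC RNAs was not tested.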

How the data were processed

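The authors made stranded mRNA libraries from 9 samples and deposited unnormalized counts of reads per gene, which are whole numbers. The submitters' processing notes name STAR 2.7.10b, DESeq2 1.26.0 and hg19. How reads were counted (program, annotation and use of strand) is not given in the sources used here, so reads of overlapping, antisense and near-identical genes cannot be told apart. Groups came from the sample labels. The members and the gene lists were chosen with earlier results of these data known.

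Counts were analysed with edgeR 4.0.16 in R 4.3.3, with TMM scaling, filterByExpr and the quasi-likelihood test, fitted separately for each pair of groups. Tests were two-sided, with Benjamini-Hochberg adjustment over all genes tested, and a gene was called at an adjusted p under 0.05. The members were then read out of these fits. CPM values used TMM scaling over all 9 libraries. Dates stood in place of 28 of the 26364 gene names, and those rows stayed in the fits.

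Members named are the 8 with the highest level per kb, the 8 with the largest called changes in each direction of each comparison with a mean of 20 counts or more and groups that do not overlap, the members on the lists of small proteins and of cancer RNAs, and the 3 rows on each side of the mean count of 10. Other called members were named after their values were seen. Of the other 2 lists, other long noncoding RNAs and the nuclear RNA exosome, the 2 largest changes in each direction may be named.

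Loci, lengths and GC content came from GENCODE annotation on GRCh37, through current symbols and RefSeq synonyms. Promoter windows of 300 bases came from RefSeq (GRCh38.p14), all listed start sites included, and were searched on both strands for the AP-1 and CRE letters given above. Runs of 50 bases were compared with all annotated transcripts in both orientations.

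The alternatives tried were the Wald test of DESeq2 1.42.0, edgeR with DESeq2 size factors or with library size alone, fits unfiltered or limited to genes with a mean of 50 counts, a joint fit of all 9 libraries, a block for the replicate number, a loess correction for length and GC content (span 0.5) as an offset, the study's threshold (absolute log2 fold change over 0.5 and unadjusted p under 0.05), a member threshold of 50 counts, and leaving out each replicate. The fits were tested on simulated counts with known changes. Limits for counts of 0 cover counting error only.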

Additional observations from a re-analysis of the deposited data

How the results depend on the processing

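Counts of members called moved with the processing. None of the 21, 19 and 40 calls reversed in direction in the 13 other fits of its comparison. The share of all genes called in those other fits is not given here or above. Their counts therefore describe the members alone and do not set them apart from other genes. With all 9 libraries in a single fit, the calls were 23 higher and 30 lower in *LA* against control (9 and 12 as reported), 0 and 0 in sg*FOS* against sgScr (6 and 13), and 3 and 17 in sgScr against *LA* (8 and 32). The study's own threshold gave 21 higher and 22 lower in *LA* against control and 14 higher in sgScr against *LA*. A member threshold of 50 counts left 4 higher in the former, and 5 higher and 19 lower in the latter. A filter at a mean of 50 counts gave 5 higher and 21 lower in sgScr against *LA*, and DESeq2 3 higher and 3 lower in sg*FOS* against sgScr. Library size alone raised the median of all genes in *LA* against control by 0.28 on the log2 scale and gave 7 lower in that comparison. Leaving out each replicate in turn gave 1 to 12 higher and 1 to 22 lower in *LA* against control, 2 to 6 and 2 to 17 in sg*FOS* against sgScr, and 1 to 24 and 4 to 51 in sgScr against *LA*. Without the 10 genes with the highest counts, the members' share was 0.148% in control (0.136% with them), 0.144% in sgScr (0.136%) and 0.136% in sg*FOS* (0.128%).

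Whether the replicate numbers pair the samples cannot be decided from these libraries. In a group of 2 libraries the deviations mirror each other, so both numbers gave the same correlation in *LA* and control. Deviations of same-numbered libraries from their group means correlated at -0.29 in *LA* and control, -0.17 and 0.04 in sg*FOS* and sgScr, and 0.02 and -0.05 in sgScr and *LA*. With the replicate number as a block, 7 members were lower in *LA* against control, and 1 was higher and 14 lower in sgScr against *LA*. With the numbers of *LA* and control crossed, an alternative chosen after seeing the data, 28 members were called.

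Depth limits the low members: 92 of 143 had a mean under 100 counts. The median SE of the log2 fold change in *LA* against control was 0.62 over the members and 0.44 over all genes. It was 0.26 and 0.08 in sg*FOS* against sgScr, and 0.32 and 0.16 in sgScr against *LA*. Shares called among the members and among all genes are therefore not at like precision. The cause of the shifts with the processing was not tested.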
